A study of Homo sapiens with 18 samples.

Results

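Transcripts of N-glycan precursor synthesis and transfer were followed in T98G cells, a human glioblastoma line. The set holds 41 genes, taken by symbol for their place in the pathway and not for their values, among 55128 genes in the deposited table. All 41 passed the filter on low values that left 12108 genes for testing. The cells were treated for 2 h with gnetin H (GH, an oligostilbene) at 8 µM, with phenformin (Phen, a biguanide that inhibits mitochondrial complex I) at 100 µM, with 2-deoxyglucose (2DG) at 10 mM, with GH plus Phen, with 2DG plus Phen, or with the solvent DMSO. Doses in the combinations were those of the single agents. The labels and the methods give 10 mM for 2DG, while the results text of the study gives another dose. Each of the 6 groups had 3 libraries of stranded polyadenylated RNA, with the letters A, B and C for biological replicates, so 18 libraries in all. The T98G line was the only cell source, and 2 h the only time.

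An N-glycan is built as a lipid-linked precursor before it meets a protein. Mannose enters as mannose 6-phosphate and becomes GDP-mannose, while the hexosamine pathway makes UDP-GlcNAc. On the cytosolic face of the endoplasmic reticulum (ER), DPAGT1 and the ALG enzymes add these sugars to dolichol phosphate. The precursor is then turned into the lumen, extended from dolichol-linked mannose and glucose, and moved to asparagines of nascent proteins by the oligosaccharyltransferase. Glucosidases trim the transferred glycan, and its glucose residues report on folding to the calnexin cycle. 2DG resembles mannose as well as glucose, and is known both as an inhibitor of glycolysis and as a sugar that disturbs this assembly. Loss of N-glycosylation is a classical way to provoke ER stress.

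Values were deposited as FPKM, fragments scaled by exon length and by the mapped fragments of the library. A gene rose or fell where limma, fitted to log2(FPKM + 0.1) over all tested genes and all 18 libraries, gave a Benjamini-Hochberg adjusted p under 0.05. Fold changes below are on that log2 scale, given with their standard error (SE), and understate the change of genes near 0.1 FPKM. From the steps of the values, the libraries held 18417756 to 22497604 mapped fragments, and the members 0 to 21150 fragments each. Of the 5 markers of the line, 4 reached 0.5 FPKM, with summed levels of 1748 to 1780 FPKM in 2DG+Phen, the highest group, and 1487 to 1509 FPKM in DMSO, the lowest. Of 17 markers of other cell types, 1 reached 0.5 FPKM in any library and 6 were at 0 in all of them.

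A pair of libraries stood furthest from their groups. In each library the log2 level of all tested genes was related to the GC content of the gene, as a slope per 10 percentage points of GC. The slope was -0.19 in GH+Phen A, against 0.23 in both other GH+Phen libraries. It was 0.05 in DMSO C, against -0.30 and -0.23 in the other DMSO libraries. Other groups varied as well. GH C stood at 0.04 against -0.17 and -0.11, 2DG A at 0.13 against 0.29 and 0.27, and 2DG+Phen ran from 0.08 to 0.31. Group means of this slope were -0.08 in GH, -0.28 in Phen, 0.23 in 2DG, 0.09 in GH+Phen, 0.20 in 2DG+Phen and -0.16 in DMSO. Since GC content thus moved with treatment, results are also given after a smooth trend on GC content and length was removed from each library, called corrected below. A change of the cells that happens to follow GC content would be removed too.

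In DMSO the levels of the members spanned a wide range. RPN2, a structural subunit of the oligosaccharyltransferase, averaged 231 ± 13.6 FPKM and GANAB, the catalytic subunit of glucosidase II, 161 ± 15.5 FPKM (SD, n = 3 each). DAD1 followed at 102 ± 3.20 FPKM, then RPN1 at 81.3 ± 2.76 FPKM and DPM1 at 78.5 ± 4.81 FPKM (SD, n = 3), the last 2 within their spreads of each other. The lowest were PMM1 at 1.99 ± 0.869, ALG12 at 1.83 ± 0.502, ALG14 at 1.53 ± 0.0613 and DPM3 at 0.292 ± 0.324 FPKM (SD, n = 3), of which PMM1, ALG12 and ALG14 overlapped. DPM3 rested on 0 to 19 fragments a library, and no statement is drawn from it. Summed over the 41 genes, the level was 1292 ± 29.6 FPKM in GH, 1232 ± 13.9 in Phen, 1267 ± 15.1 in 2DG, 1278 ± 49.4 in GH+Phen, 1278 ± 21.7 in 2DG+Phen and 1243 ± 42.2 in DMSO (SD, n = 3 each). The sums of each treatment overlapped those of DMSO, and the Phen libraries lay below all libraries of GH, 2DG and 2DG+Phen.

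Before the correction, the single agents GH and Phen moved no member past the threshold. With GH, 0 of 41 rose and 0 fell, where 2.29% of all tested genes rose and 3.63% fell. At an unadjusted p under 0.05 there were 2 members, GFPT1 and UGGT1, or 4.88%, against 17.7% of all tested genes. With Phen, 0 of 41 rose and 0 fell, against 0.339% and 0.206% of all tested genes. An unadjusted p under 0.05 was reached by 6 members, or 14.6%, against 10.6% of all tested genes. With 2DG, 11 members rose and 14 fell. As shares these were 26.8% and 34.1%, near the 24.7% and 30.3% of all tested genes. With GH+Phen, 0 rose and 6 fell, beside 9.4% and 18.6% of all tested genes. With 2DG+Phen, 9 rose and 13 fell, beside 21.1% and 32.8%. At an unadjusted p under 0.05 there were 15 members with GH+Phen, or 36.6%, against 43.4% of all tested genes. The members were thus called about as often as other genes with 2DG and 2DG+Phen. The thresholds of the study (at least 2-fold, Bonferroni p at most 0.05 and a mean of at least 1 FPKM) were met by 0 members in any of these comparisons.

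**Figure D1:**
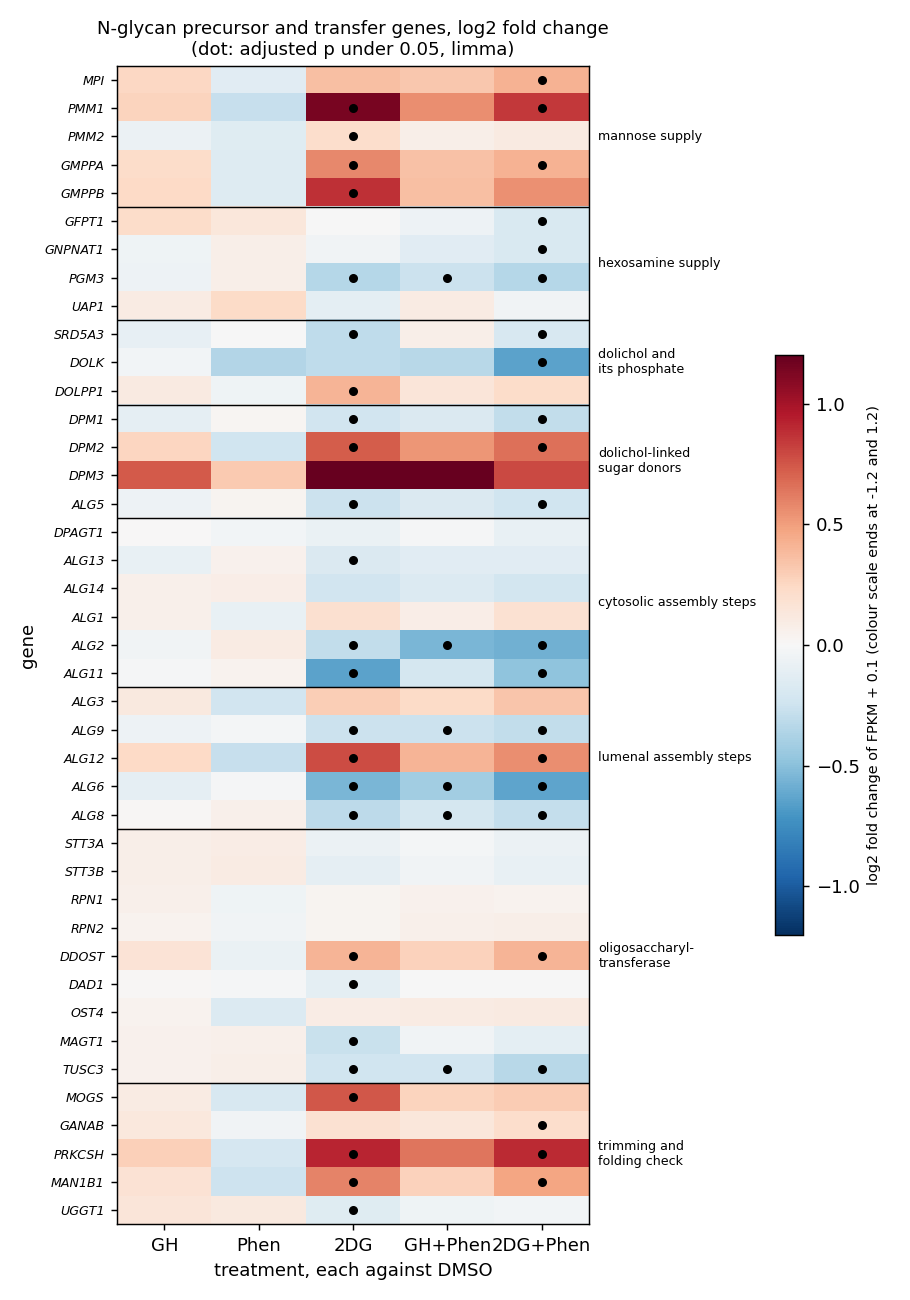
Log2 fold change of FPKM + 0.1 for the 41 genes (vertical axis, grouped by role) under 5 treatments, each against DMSO (horizontal axis). Colour gives the fold change and a dot an adjusted p under 0.05 by limma. Dots are missing under GH and Phen, and under 2DG 7 of the 11 rises are in mannose supply and trimming and 13 of the 14 falls in the other roles.

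These counts depended on single libraries and on scaling. With DMSO C and GH+Phen A left out, 4 members rose with GH, 16 rose and 17 fell with 2DG, 19 rose and 15 fell with GH+Phen, and 18 rose and 17 fell with 2DG+Phen. Among all tested genes the shares were then 9.57% up with GH, 31.7% up and 36.7% down with 2DG, 31.1% and 32.7% with GH+Phen, and 30.4% and 37.7% with 2DG+Phen. Without DMSO A, only 2 members rose with 2DG, GMPPB and PMM2. Without 2DG+Phen C, 0 rose with 2DG+Phen, so each of the 9 rises with that combination was lost. How the share of all tested genes moved with 1 library left out was not counted. With only GH+Phen and DMSO in the model, 1 of the 6 falls with GH+Phen was still called, that of ALG2. Of all tested genes, 3.94% then fell. With median-of-ratios scaling, 13 rose and 11 fell with 2DG, 0 and 6 with GH+Phen, and 15 and 9 with 2DG+Phen. Of all tested genes, 28.7% then rose and 22.7% fell with 2DG, 12.5% and 13.7% with GH+Phen, and 27.5% and 24.8% with 2DG+Phen. That scaling also moved the share of higher genes among all called ones to 55.8% with 2DG, 47.7% with GH+Phen and 52.5% with 2DG+Phen, against 44.9%, 33.6% and 39.1% as deposited.

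The genes that supply activated mannose were higher with 2DG. Of 5, 4 rose and 0 fell, with a median log2 fold change of 0.57. Their median GC content was 55.2%, and of all genes at 55% GC or more 65.5% rose with 2DG, with a median of 0.58. The uncorrected median was thus near that of genes of like composition. Corrected, the median was 0.28 and 4 were again called, where 23.6% of all tested genes rose. Their summed level was 26.5 ± 2.29 FPKM in 2DG against 17.97 ± 3.18 FPKM in DMSO (SD, n = 3 each). PMM1 and PMM2 are the phosphomannomutases that turn mannose 6-phosphate into mannose 1-phosphate. PMM1 stood at 3.46, 4.68 and 4.73 FPKM in 2DG, 1.58, 3.49 and 3.94 in GH+Phen, 3.63, 2.74 and 4.16 in 2DG+Phen, and 1.36, 1.62 and 2.98 in DMSO. All 2DG libraries lay above all DMSO libraries, while DMSO C overlapped both combinations. The change with 2DG was 1.14 (SE 0.31, adjusted p = 0.00891), the largest rise that passed the test among the members, and 0.66 corrected (adjusted p = 0.0047). Without DMSO A it was 0.92 and no longer passed. With 2DG+Phen it was 0.85 (SE 0.31, adjusted p = 0.0328), and 0.63 without DMSO A, where it did not pass.

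PMM2, the phosphomannomutase whose deficiency causes the most common congenital disorder of glycosylation, moved less but more evenly. It stood at 6.49, 7.11 and 7.196 FPKM in 2DG and 6.10, 5.73 and 6.13 in DMSO. The 2 sets did not overlap. The change was 0.21 (SE 0.06, adjusted p = 0.00974) and passed under every alternative tried, at 0.28 corrected. Its GC content of 47.3% is close to the median of 47.1% over tested genes. With GH, PMM2 was 5.78, 5.49 and 5.82 FPKM, below every 2DG library, and GH against 2DG gave -0.28 (SE 0.06, adjusted p = 0.00247).

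GMPPA and GMPPB form GDP-mannose pyrophosphorylase, GMPPB as the catalytic and GMPPA as the regulatory subunit. GMPPB stood at 4.40, 5.46 and 5.52 FPKM in 2DG against 2.06, 2.74 and 3.60 FPKM in DMSO, a change of 0.88 (SE 0.24, adjusted p = 0.00834). GMPPA stood at 6.57, 6.90 and 7.25 FPKM in 2DG against 3.85, 4.34 and 5.83 FPKM in DMSO, a change of 0.57 (SE 0.16, adjusted p = 0.00872). Neither pair of sets overlapped. Corrected, both still rose with 2DG, GMPPB by 0.19 (adjusted p = 0.038) and GMPPA by 0.26 (adjusted p = 0.0097). Without DMSO A the change of GMPPA was 0.45 and no longer passed. With 2DG+Phen GMPPA rose by 0.41 (0.29 without DMSO A, where it did not pass), and GMPPB, at 4.19, 3.43 and 4.604 FPKM, did not pass. MPI, which interconverts fructose 6-phosphate and mannose 6-phosphate, rose with 2DG+Phen by 0.42 (SE 0.15, adjusted p = 0.03).

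The 4 genes of the hexosamine branch make UDP-GlcNAc, and with 2DG 0 rose and 1 fell, with a median of -0.08. Corrected, 3 rose (GFPT1, GNPNAT1 and UAP1) and 1 fell, with a median of 0.16, so the direction of this branch turned with the correction. PGM3, the phosphoacetylglucosamine mutase, was the gene that fell in both. It stood at 9.61, 9.54 and 8.90 FPKM in 2DG, 10.7, 9.69 and 9.47 in GH+Phen, 9.69, 9.55 and 8.88 in 2DG+Phen, and 12.5, 12.2 and 11.04 in DMSO. All 9 treated libraries lay below all DMSO libraries. The changes were -0.34 (SE 0.06, adjusted p = 0.00051) with 2DG, -0.25 (SE 0.06, adjusted p = 0.00524) with GH+Phen and -0.34 (SE 0.06, adjusted p = 0.000328) with 2DG+Phen. Corrected, they were -0.11, -0.11 and -0.06, the last of which did not pass (adjusted p = 0.19). GNPNAT1, the acetyltransferase between GFPT1 and PGM3, fell with 2DG+Phen only (-0.18, SE 0.05, adjusted p = 0.0123).

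GFPT1 is the rate-limiting aminotransferase that opens the hexosamine pathway. It stood at 17.6, 17.8 and 16.5 FPKM in GH, 16.6, 16.2 and 16.2 in Phen, 14.6, 14.7 and 15.02 in 2DG, 16.3, 13.04 and 13.6 in GH+Phen, 12.6, 13.6 and 12.8 in 2DG+Phen, and 15.5, 15.4 and 13.7 in DMSO. The GH libraries did not overlap DMSO, at 0.22 (SE 0.07, adjusted p = 0.0774), which missed the threshold. Corrected, the change with GH was also 0.22 and passed (adjusted p = 9.2e-05), as did 0.22 with 2DG (adjusted p = 4e-05), where the uncorrected value was -0.00. The fall with 2DG+Phen (-0.19, SE 0.07, adjusted p = 0.0341) turned to a rise of 0.09 when corrected, and did not pass without DMSO A (-0.16). UAP1, which makes UDP-GlcNAc, did not pass in any treatment against DMSO uncorrected, and rose in all 5 when corrected, by 0.13 with 2DG to 0.28 with GH+Phen. Its values were 49.6, 44.1 and 45.2 FPKM in GH, 51.1, 52.3 and 48.1 in Phen, 41.6, 39.1 and 38.9 in 2DG, 50.9, 44.5 and 43.5 in GH+Phen, 42.3, 44.3 and 39.2 in 2DG+Phen, and 45.9, 43.6 and 40.01 in DMSO. The Phen libraries lay above DMSO with no overlap, at 0.23 (SE 0.07, adjusted p = 0.215).

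**Figure D2:**
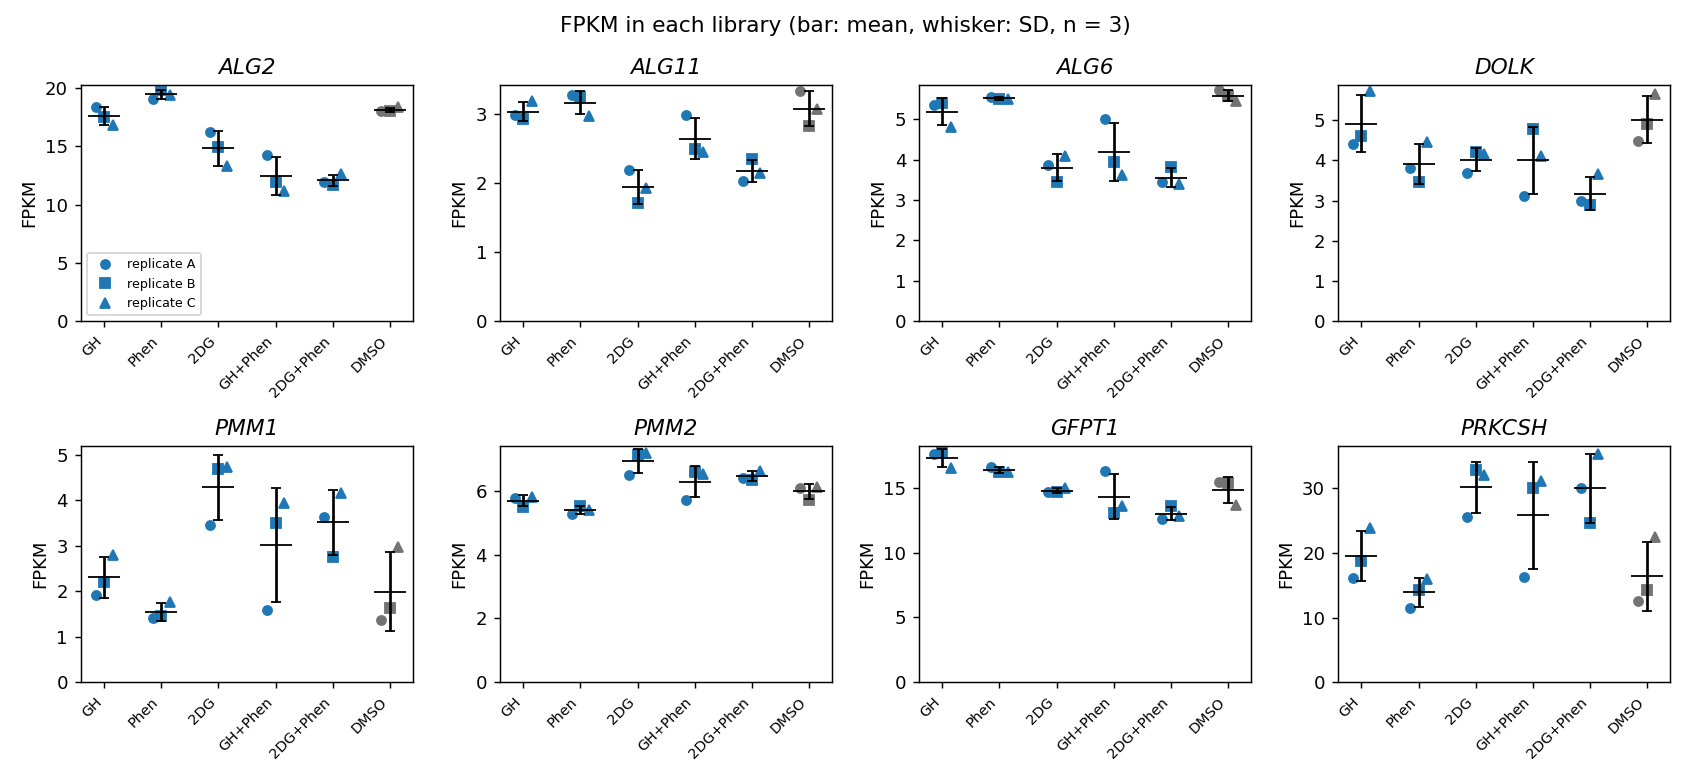
FPKM (vertical axes, from 0) in each of 18 libraries for 8 genes, by treatment with DMSO at the right. Symbols mark the replicate, bars the mean and whiskers the SD of 3 libraries. ALG2 in both combinations lies at 11.2 to 14.3 FPKM, below all DMSO libraries at 18.001 to 18.4, while DMSO C and GH+Phen A stand apart for PMM1 and PRKCSH.

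The lipid carrier itself is made and recycled by SRD5A3, DOLK and DOLPP1. DOLK, the dolichol kinase, stood at 4.42, 4.6004 and 5.73 FPKM in GH, 3.82, 3.47 and 4.44 in Phen, 3.70, 4.22 and 4.15 in 2DG, 3.13, 4.77 and 4.12 in GH+Phen, 2.99, 2.88 and 3.65 in 2DG+Phen, and 4.49, 4.90 and 5.64 in DMSO. All libraries of Phen, 2DG and 2DG+Phen lay below all of DMSO, while GH+Phen overlapped it. Only the fall with 2DG+Phen passed (-0.64, SE 0.15, adjusted p = 0.00295). DOLK has a GC content of 56.7%, and genes of 55% GC or more had a median change of 0.47 with 2DG+Phen, so it moved against genes of like composition. Corrected, it fell by 0.69 with 2DG (adjusted p = 4.3e-06), by 0.55 with GH+Phen (adjusted p = 3.3e-05) and by 0.94 with 2DG+Phen (adjusted p = 7.1e-08). It was counted with 127 to 249 fragments a library.

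SRD5A3, the reductase for the last step of dolichol synthesis, stood at 2.89, 3.06 and 3.13 FPKM in 2DG, 3.88, 3.91 and 4.01 in GH+Phen, 3.27, 3.28 and 3.30 in 2DG+Phen, and 3.99, 3.60 and 3.68 in DMSO. It fell with 2DG (-0.30, SE 0.05, adjusted p = 0.00072) and with 2DG+Phen (-0.19, SE 0.05, adjusted p = 0.0109), with no overlap. Corrected, neither passed, at -0.13 and 0.01, and without DMSO A the change with 2DG+Phen was -0.15 and did not pass. It was also the only member called between the combinations before the correction, higher in GH+Phen than in 2DG+Phen by 0.25 (SE 0.05, adjusted p = 0.00708), and corrected by 0.17 (adjusted p = 0.087). Corrected, DOLK was called there in its place, also higher in GH+Phen (adjusted p = 0.0015). DOLPP1, the pyrophosphatase that recycles the carrier, rose with 2DG (0.41, SE 0.12, adjusted p = 0.012) and was 0.07 corrected.

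Among the enzymes that make dolichol-linked mannose and glucose, the subunits of dolichol phosphate mannose synthase moved apart. DPM1, the catalytic subunit, stood at 68.7, 65.6 and 66.2 FPKM in 2DG, 62.9, 68.1 and 61.2 in 2DG+Phen, and 83.6, 77.8 and 74.1 in DMSO. It fell with 2DG (-0.23, SE 0.07, adjusted p = 0.011) and with 2DG+Phen (-0.29, SE 0.07, adjusted p = 0.0024), and was 0.03 in both when corrected. Without DMSO A the fall with 2DG was -0.18 and did not pass. DPM2, a membrane subunit, stood at 8.49, 10.4 and 10.2 FPKM in 2DG, 9.29, 8.10 and 10.3 in 2DG+Phen, and 4.56, 5.46 and 7.71 in DMSO. All treated libraries lay above all DMSO libraries, at 0.73 (SE 0.22, adjusted p = 0.0127) and 0.66 (SE 0.22, adjusted p = 0.0199). Corrected, DPM2 rose by 0.46 and 0.45. Without DMSO A, neither change of DPM2 passed, at 0.56 and 0.50. ALG5, which makes dolichol phosphate glucose, fell with 2DG (-0.26) and with 2DG+Phen (-0.24) and passed in neither when corrected.

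Of the 6 genes of the cytosolic steps, 3 fell with 2DG (ALG2, ALG11 and ALG13), 1 with GH+Phen and 2 with 2DG+Phen, and 0 rose. Of all tested genes, 30.3% fell with 2DG, 18.6% with GH+Phen and 32.8% with 2DG+Phen. Of the 5 genes of the lumenal steps, 3 fell in each combination. The genes that fell in both steps are all under 45% GC. In that class 53.2% of all genes fell with 2DG, 29.5% with GH+Phen and 56.3% with 2DG+Phen. The summed level of the 6 cytosolic genes was 40.3 ± 0.757 FPKM in GH+Phen, 39.5 ± 0.658 in 2DG+Phen and 46.6 ± 1.41 in DMSO (SD, n = 3 each). ALG2, the mannosyltransferase that extends the growing core on the cytosolic face, stood at 18.4, 17.6 and 16.9 FPKM in GH, 19.1, 19.8 and 19.4 in Phen, 16.3, 14.9 and 13.3 in 2DG, 14.3, 11.9 and 11.2 in GH+Phen, 11.95, 11.7 and 12.6 in 2DG+Phen, and 18.04, 18.001 and 18.4 in DMSO. Both combinations were below every library of DMSO, GH and Phen, and the DMSO libraries were close together. The changes against DMSO were -0.55 (SE 0.08, adjusted p = 0.000159) with GH+Phen and -0.58 (SE 0.08, adjusted p = 4.09e-05) with 2DG+Phen. Corrected, they were -0.42 (adjusted p = 6.5e-05) and -0.38 (adjusted p = 0.0001), and they passed under every alternative tried. With 2DG alone the change was -0.29 (SE 0.08, adjusted p = 0.00827), and -0.11 corrected (adjusted p = 0.14).

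ALG11 adds the last mannoses on the cytosolic face. It stood at 2.19, 1.71 and 1.93 FPKM in 2DG, 2.98, 2.49 and 2.45 in GH+Phen, 2.03, 2.34 and 2.15 in 2DG+Phen, and 3.34, 2.83 and 3.06 in DMSO. The libraries of 2DG and 2DG+Phen lay below all DMSO libraries, and GH+Phen overlapped them. ALG11 fell by 0.64 with 2DG (SE 0.10, adjusted p = 0.000201) and by 0.48 with 2DG+Phen (SE 0.10, adjusted p = 0.00106), and by 0.49 and 0.31 corrected. UTP14C overlaps ALG11 on the same strand and also fell, by 0.66 with 2DG and 0.64 with 2DG+Phen. UTP14C fell with GH and GH+Phen as well (-0.29 and -0.37, adjusted p = 0.00314 and 7.84e-05), where ALG11 did not pass. Whether the reads of these genes are shared was not tested. DPAGT1, which starts the precursor and is the target of tunicamycin, stayed between 9.50 and 10.51 FPKM in all 18 libraries and passed in no comparison. Corrected, it was given as -0.58 with 2DG (adjusted p = 0.0044), although it has a GC content of 58.4% and its uncorrected value was -0.08 (SE 0.04). With 2DG+Phen it was -0.48 corrected (adjusted p = 0.01) and -0.09 uncorrected, so these calls arose only with the correction. ALG13, which with ALG14 adds the second sugar, fell with 2DG by 0.18 (SE 0.07, adjusted p = 0.0487), while ALG14 (-0.23, adjusted p = 0.0574) and ALG1, the first mannosyltransferase (0.19, adjusted p = 0.141), did not pass.

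In the lumen, the glucosyltransferases ALG6 and ALG8 fell together. ALG6, which adds the first glucose, stood at 3.87, 3.44 and 4.09 FPKM in 2DG, 4.99, 3.94 and 3.63 in GH+Phen, 3.45, 3.82 and 3.39 in 2DG+Phen, and 5.73, 5.57 and 5.44 in DMSO. All 9 treated libraries lay below all DMSO libraries, with GH+Phen A the closest. The changes were -0.55 (SE 0.10, adjusted p = 0.000619), -0.42 (SE 0.10, adjusted p = 0.00501) and -0.64 (SE 0.10, adjusted p = 0.000105). Corrected, they were -0.29, -0.21 and -0.31, and all passed. ALG6 has the lowest GC content of the members, 35.1%. ALG8, which adds the next glucose, fell by 0.32, 0.21 and 0.28 in the same order, and by 0.12 and 0.08 corrected with 2DG and GH+Phen, while -0.06 with 2DG+Phen did not pass. ALG9, a mannosyltransferase, fell in all 3 treatments as well, and kept the call when corrected only with GH+Phen (-0.16, adjusted p = 0.014). ALG3, the first lumenal mannosyltransferase, passed in no treatment (0.29 with 2DG, SE 0.16, adjusted p = 0.132).

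ALG12, another lumenal mannosyltransferase, went the other way. It stood at 2.50, 3.59 and 3.51 FPKM in 2DG, 2.79, 2.20 and 3.15 in 2DG+Phen, and 1.42, 1.69 and 2.39 in DMSO. The 2DG libraries lay above all DMSO libraries, while DMSO C overlapped 2DG+Phen. The rise with 2DG was 0.78 (SE 0.22, adjusted p = 0.011), 0.43 corrected (adjusted p = 0.011), and did not pass without DMSO A (0.62). With 2DG+Phen it was 0.56 (SE 0.22, adjusted p = 0.0474), and 0.40 without DMSO A, where it did not pass. ALG12 overlaps CRELD2, an ER stress gene on the opposite strand, which rose with GH (0.77), 2DG (0.98), GH+Phen (0.63) and 2DG+Phen (0.45). The study mapped reads by strand.

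ALG12 was also the only member with a match to an ER stress element in its promoter window. Windows from 250 bases before to 50 after the start, as given by RefSeq for GRCh38.p14, matched 37 of the 41 genes, with 52 windows. They were searched on both strands for ERSE (CCAAT and CCACG with 9 bases between), for ERSE-II (ATTGG and CCACG with 1 base between) and for the UPRE core (TG followed directly by ACGTGG). ERSE matched 27 of 35116 windows of all genes (0.0769%), ERSE-II 19 (0.0541%) and the UPRE core 256 (0.729%). Of 8 ER stress marker genes, 3 held ERSE (CRELD2, HSPA5 and XBP1) and 2 held ERSE-II, whereas of the members 1 held ERSE and 0 held another motif. CRELD2 is the gene that overlaps ALG12 on the opposite strand, and which of them the ALG12 match serves was not tested. The window of ALG12 is on the minus strand at chr22:49918389-49918688, with ERSE in capitals starting at -134 from the start site. The window of ALG2, on the minus strand at chr9:99221893-99222192, is shown beside it because ALG2 had the largest called change with GH+Phen, and it holds none of the motifs, hence no capitals. A match is a run of letters and was not tested for binding.
ALG12: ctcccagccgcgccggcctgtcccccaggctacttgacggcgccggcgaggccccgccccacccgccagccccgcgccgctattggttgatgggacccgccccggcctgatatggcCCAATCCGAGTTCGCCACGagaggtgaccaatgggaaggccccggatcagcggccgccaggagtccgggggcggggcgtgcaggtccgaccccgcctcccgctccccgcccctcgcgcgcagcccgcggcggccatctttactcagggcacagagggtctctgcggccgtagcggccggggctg
ALG2: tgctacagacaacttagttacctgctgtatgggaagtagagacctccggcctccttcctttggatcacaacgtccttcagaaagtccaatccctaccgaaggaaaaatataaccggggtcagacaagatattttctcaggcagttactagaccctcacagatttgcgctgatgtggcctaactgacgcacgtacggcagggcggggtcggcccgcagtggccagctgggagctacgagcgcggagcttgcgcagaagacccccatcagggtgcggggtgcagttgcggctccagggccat

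The oligosaccharyltransferase, the enzyme that moves the precursor to protein, had few calls before the correction and more after it. Of its 9 genes, 1 rose and 3 fell with 2DG, 0 and 1 with GH+Phen, and 1 and 1 with 2DG+Phen. Corrected, 4 rose and 0 fell with GH, 3 and 1 with 2DG, 5 and 0 with GH+Phen, and 6 and 1 with 2DG+Phen. Its summed level was 705 ± 8.80 FPKM in 2DG, 723 ± 28.5 in GH+Phen, 723 ± 10.2 in 2DG+Phen and 699 ± 23.7 in DMSO (SD, n = 3 each). The catalytic subunits STT3A, of the complex that acts during translocation, and STT3B, of the complex that acts after it, passed against DMSO in no treatment uncorrected. Corrected, both rose with GH, 2DG, GH+Phen and 2DG+Phen, STT3A by 0.08 to 0.12 and STT3B by 0.10 to 0.17. STT3A stood at 62.95, 62.9 and 63.2 FPKM in GH, 59.1, 56.2 and 56.9 in 2DG, and 62.0, 59.9 and 58.8 in DMSO. STT3B stood at 63.7, 66.2 and 62.0 FPKM in GH, 60.4, 54.4 and 54.5 in 2DG, and 64.5, 62.7 and 55.9 in DMSO. STT3A lay above all DMSO libraries with GH by 0.07 (SE 0.04, adjusted p = 0.411), and the 2DG set of STT3A and both sets of STT3B overlapped DMSO. Both genes were higher with GH than with 2DG, STT3A by 0.13 (SE 0.04, adjusted p = 0.014) and STT3B by 0.18 (SE 0.07, adjusted p = 0.0427). Corrected, that difference was 0.01 for each.

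MAGT1 and TUSC3 are the alternative thioredoxin-like subunits of the STT3B complex. TUSC3 stood at 13.3, 13.3 and 12.9 FPKM in 2DG, 14.96, 12.6 and 12.3 in GH+Phen, 12.2, 12.6 and 12.3 in 2DG+Phen, and 16.7, 15.4 and 14.6 in DMSO. It fell with all 3, by 0.24 (SE 0.06, adjusted p = 0.00662), 0.23 (SE 0.06, adjusted p = 0.0136) and 0.33 (SE 0.06, adjusted p = 0.00065), and GH+Phen A overlapped DMSO. Without DMSO A the fall with GH+Phen was -0.18 and did not pass. MAGT1 stood at 31.4, 28.9 and 28.6 FPKM in 2DG and 36.1, 37.5 and 33.7 in DMSO, and fell by 0.27 (SE 0.05, adjusted p = 0.00146). Corrected, none of these falls passed. Of the structural subunits, DDOST rose with 2DG and 2DG+Phen, by 0.41 in each (adjusted p = 0.025 in each), and by 0.20 and 0.26 corrected. RPN1, RPN2 and OST4 passed nowhere uncorrected, and DAD1 fell with 2DG by 0.12 (SE 0.03, adjusted p = 0.00472), which was 0.00 corrected. Only with the correction, OST4 fell with 2DG and 2DG+Phen, RPN1 rose with GH+Phen and 2DG+Phen, and DAD1 rose with 2DG+Phen.

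In the trimming step the glucosidase genes leaned upward. PRKCSH, the beta subunit of glucosidase II, stood at 25.6, 32.8 and 32.1 FPKM in 2DG, 16.2, 30.1 and 31.2 in GH+Phen, 30.1, 24.6 and 35.4 in 2DG+Phen, and 12.5, 14.2 and 22.5 in DMSO. The libraries of 2DG and 2DG+Phen lay above all of DMSO, and GH+Phen A lay among the DMSO libraries. PRKCSH rose by 0.92 with 2DG (SE 0.26, adjusted p = 0.0101) and by 0.90 with 2DG+Phen (SE 0.26, adjusted p = 0.0104). Corrected, these were 0.29 and 0.39 and still passed, and without DMSO A they were 0.74 and 0.73 and did not. GANAB, its catalytic partner, rose with 2DG+Phen (0.22, SE 0.08, adjusted p = 0.033), at 189, 178 and 192 FPKM in 2DG+Phen against 149, 155 and 178 FPKM in DMSO, with a slight overlap.

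MOGS, glucosidase I, takes the outermost glucose off. It stood at 5.39, 6.94 and 7.35 FPKM in 2DG, 5.36, 3.84 and 5.19 in 2DG+Phen, and 2.81, 3.80 and 5.26 in DMSO. It rose with 2DG (0.75, SE 0.22, adjusted p = 0.0127), the sets just separate, and corrected this was 0.08 and did not pass, nor did 0.53 without DMSO A. With 2DG+Phen the uncorrected 0.30 did not pass, and corrected it fell by 0.24 (adjusted p = 0.047). MOGS has the highest GC content of the members, 61.1%. MAN1B1, the ER mannosidase that marks slow folders, rose with 2DG (0.60) and 2DG+Phen (0.48) and passed in neither when corrected. UGGT1, the folding sensor that adds glucose back, fell with 2DG (-0.14, SE 0.05, adjusted p = 0.0327), and was -0.05 corrected.

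The direction of a member with 2DG went with its GC content. Over the 41 members, the log2 fold change with 2DG and GC content had a Pearson r of 0.79, a description across genes that share libraries, against 0.67 over all tested genes. Of the 19 members under 45% GC, 0 rose and 13 fell, and in that class 3.7% of all genes rose and 53.2% fell. Of the 14 members at 55% GC or more, 9 rose and 0 fell, and in that class 65.5% of all genes rose and 1.48% fell. The 11 that rose spanned 47.3% to 61.1% GC and the 14 that fell 35.1% to 47.7%. With 2DG+Phen r was 0.76, with GH+Phen 0.67, with GH 0.59 and with Phen -0.64. What part of each change belongs to GC content was not tested.

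**Figure D3:**
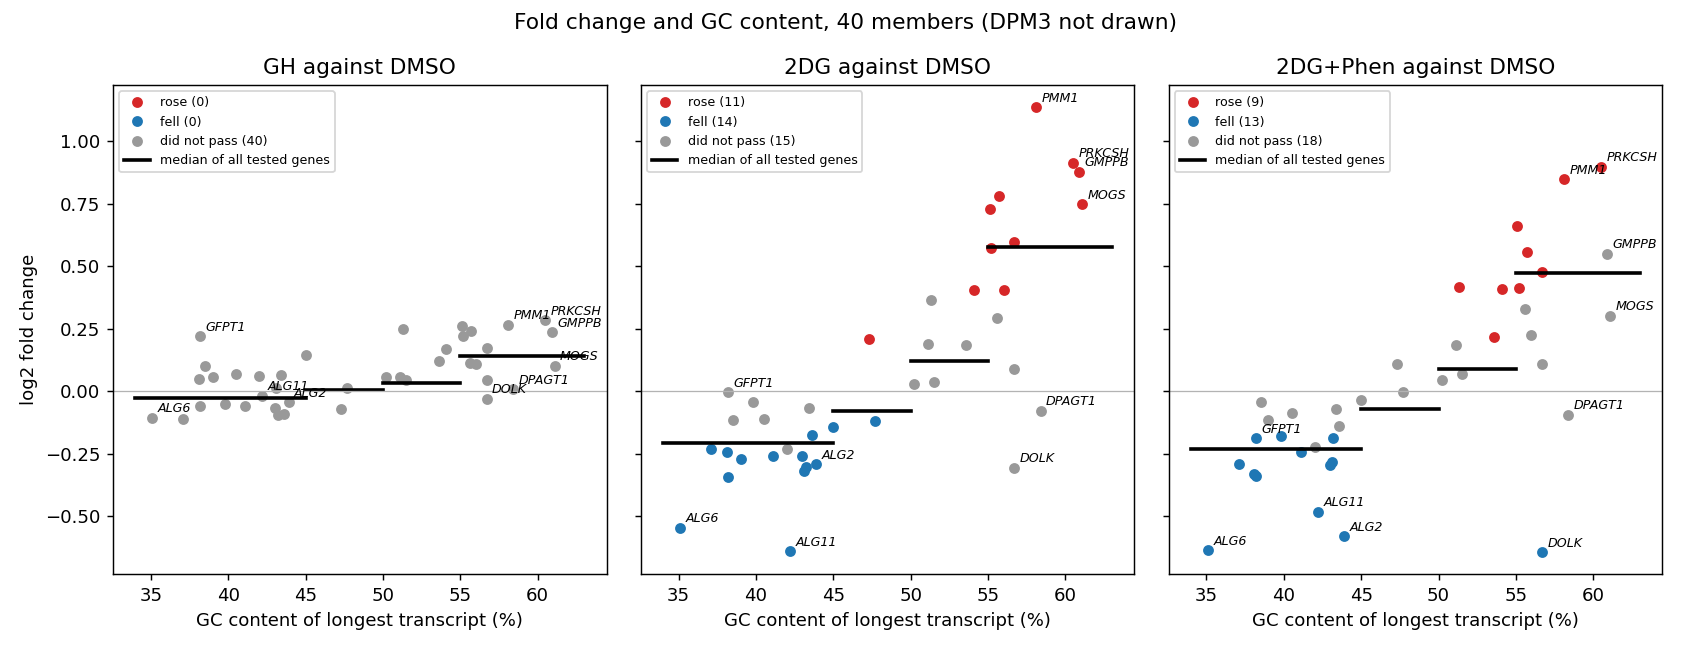
Log2 fold change against DMSO (vertical axis) over the GC content of the longest transcript in percent (horizontal axis) for 40 members, without DPM3, under GH, 2DG and 2DG+Phen. Colours mark members that rose, fell or did not pass, and black lines the median of all tested genes in 4 GC classes. With 2DG the lines run at -0.21 under 45% and 0.58 at 55% or more, most members lie near them, and DOLK lies well under its line.

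After the correction 8 of the 11 rises with 2DG were still called, namely PMM1, PMM2, GMPPA, GMPPB, DPM2, ALG12, DDOST and PRKCSH, and 4 of the 14 falls, namely PGM3, ALG11, ALG6 and ALG8. With GH+Phen 5 of the 6 falls were still called, namely PGM3, ALG2, ALG9, ALG6 and ALG8. With 2DG+Phen, 8 of the 9 rises and 4 of the 13 falls were still called, the falls being DOLK, ALG2, ALG11 and ALG6. The correction also added calls, so that 13 rose and 7 fell with 2DG, 10 and 6 with GH+Phen, and 16 and 7 with 2DG+Phen. Among all tested genes, 23.6% rose and 21% fell with 2DG after the correction, 20.3% and 17.7% with GH+Phen, and 28.1% and 22.6% with 2DG+Phen. With GH it gave 7 rises, namely GFPT1, UAP1, STT3A, STT3B, MAGT1, TUSC3 and GANAB, and with Phen 1, UAP1, where 7.53% of all tested genes rose with GH. The corrected changes with GH lay between 0.08 for GANAB and 0.22 for GFPT1.

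**Figure D4:**
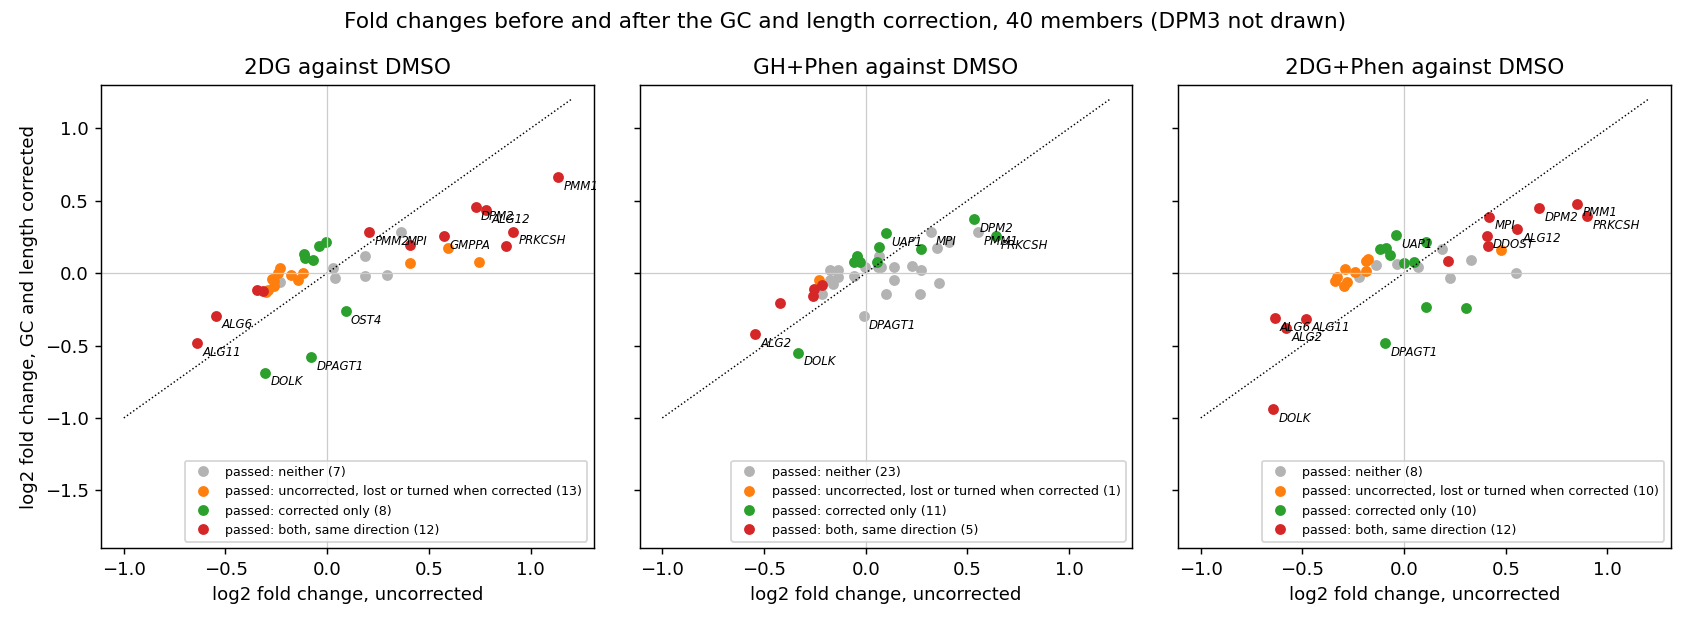
Log2 fold change against DMSO after the GC and length correction (vertical axis) and before it (horizontal axis) for 40 members, without DPM3, under 2DG, GH+Phen and 2DG+Phen; the dotted line marks equal values. Colours show in which fit a member passed the test. PMM1 at 1.14 and 0.66 stays high with 2DG, ALG2 at -0.58 and -0.38 stays low with 2DG+Phen, and DOLK and DPAGT1 move down with the correction.

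The combinations were also compared with GH and 2DG given alone. GH+Phen against GH gave 0 rises and 7 falls, beside 3.3% and 9.22% of all tested genes. That is 17.1% of the members falling. The genes were ALG2 (-0.50), ALG6 (-0.31), GFPT1 (-0.28), TUSC3 (-0.28), ALG8 (-0.23), UGGT1 (-0.20) and PGM3 (-0.20). With DMSO C and GH+Phen A left out, 9 rose and 15 fell, beside 22.7% and 26.1% of all tested genes. Corrected, 3 rose and 7 fell, beside 11.4% and 10.5%. Of the 7 uncorrected falls, 6 were then still called, and PGM3 was not. 2DG+Phen against 2DG gave 1 rise, DAD1 (0.12, SE 0.03, adjusted p = 0.0145), and 1 fall, ALG2 (-0.29, SE 0.08, adjusted p = 0.0267), beside 3.53% and 7.69%. Corrected, 5 rose and 4 fell, beside 12.6% and 10.6%, with ALG2 among the falls and DAD1 not called. ALG2 was thus lower when Phen was added to either agent, while Phen alone, with all libraries just above DMSO, gave 0.10 (SE 0.08, adjusted p = 0.643).

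Whether the effect of Phen differed in the presence of GH or 2DG was asked with an interaction term. For GH, 0 members had a term above 0 and 4 below 0, beside 1.45% and 3.73% of all tested genes. They were ALG2 (-0.60, SE 0.11, adjusted p = 0.00713), GFPT1 (-0.42, SE 0.10, adjusted p = 0.0245), TUSC3 (-0.35, SE 0.09, adjusted p = 0.0343) and UGGT1 (-0.32, SE 0.07, adjusted p = 0.0246), and all 4 stayed past the threshold when corrected. For 2DG, 0 members passed in either direction, beside 1.38% above and 3.59% below 0. An unadjusted p under 0.05 was reached by 4 members, or 9.76%, against 16.5% of all tested genes. ALG2 came closest there (-0.39, SE 0.11, adjusted p = 0.059), and -0.36 corrected passed (adjusted p = 0.011). These terms and the changes against DMSO share control libraries.

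Set against each other, GH and 2DG left different levels. In GH against 2DG, 16 members were higher and 4 lower, beside 24.7% and 14.6% of all tested genes. The largest differences that passed were PMM1 (-0.87, SE 0.31, adjusted p = 0.0393), MOGS (-0.65), GMPPB (-0.64) and ALG11 (0.62, SE 0.10, adjusted p = 0.000333). Corrected, 6 of the 16 and 2 of the 4 were still called, the last 2 being PMM1 and PMM2. With median-of-ratios scaling 10 were higher and 5 lower, beside 18.2% and 19% of all tested genes. In GH+Phen against 2DG+Phen, 1 was higher, SRD5A3, and 0 lower, beside 8.33% and 2.16%.

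The genes around the pathway give the setting. Of the 8 ER stress marker genes, 7 rose and 0 fell with GH, with 2DG and with GH+Phen, 5 rose and 1 fell with 2DG+Phen, and 0 passed with Phen (2 at an unadjusted p under 0.05). HERPUD1, a degradation factor of the ER membrane, rose by 1.88 with GH and 2.00 with 2DG. HSPA5, the ER chaperone BiP, stood at 364, 362 and 342 FPKM in GH, 422, 398 and 402 in 2DG, 200, 200 and 188 in 2DG+Phen, and 178, 178 and 166 in DMSO. GH thus raised these genes in the same libraries in which 0 of the 41 members passed before the correction. Corrected, 7 members rose and 0 fell with GH, beside 7.53% and 7.89% of all tested genes. Of 15 other genes of precursor synthesis and transfer, 0 passed with GH or with Phen (1 and 2 reached an unadjusted p of 0.05). With 2DG 4 rose and 6 fell, with GH+Phen 0 and 2, and with 2DG+Phen 3 and 5. Corrected, 2 rose and 0 fell with GH, 5 and 1 with 2DG, 2 and 2 with GH+Phen, and 3 and 1 with 2DG+Phen. The shares of all tested genes in both fits are given above. The uncorrected calls with 2DG included ALG10B, the glucosyltransferase that adds the last glucose (-0.58, SE 0.09, adjusted p = 0.000204), NAGK, the GlcNAc kinase (0.54, SE 0.12, adjusted p = 0.003), and AMDHD2, the GlcNAc 6-phosphate deacetylase (1.496, SE 0.37, adjusted p = 0.00535). Their GC contents were 32.9%, 50.8% and 64.4%, in that order. AMDHD2 was low in DMSO, at 0.256, 0.422 and 0.616 FPKM.

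Downstream, of 12 genes of the calnexin cycle and glycoprotein degradation, 2 rose and 0 fell with GH, 2 and 4 with 2DG, 1 and 2 with GH+Phen, 2 and 5 with 2DG+Phen, and 0 passed with Phen (2 at an unadjusted p under 0.05). Corrected, 9 rose and 0 fell with GH, 1 and 0 with Phen, 5 and 3 with 2DG, 4 and 2 with GH+Phen, and 5 and 4 with 2DG+Phen. For the lists here, the shares of all tested genes are those given above, with 2.6% up and 0.865% down for Phen corrected. CALR, the lectin chaperone calreticulin, stood at 216, 232 and 250 FPKM in GH, 239, 254 and 252 in 2DG, and 145, 160 and 195 in DMSO, and rose by 0.49 with GH and 0.58 with 2DG. SEL1L, an adaptor of the ER degradation ligase, rose with GH (0.29, SE 0.07, adjusted p = 0.0152). EDEM3, a mannosidase of glycoprotein degradation, fell with 2DG (-0.61, SE 0.10, adjusted p = 0.000282), as did ERLEC1, a lectin of that pathway (-0.40, SE 0.07, adjusted p = 0.000889). Their GC contents were 38.5% and 38.2%. Of 16 Golgi N-glycan processing genes, 13 were tested, and 0 passed with GH or Phen (nor any at an unadjusted p of 0.05), while 4 rose and 5 fell with 2DG, 1 and 2 with GH+Phen, and 5 and 4 with 2DG+Phen. Corrected, 4 rose and 4 fell with 2DG, 3 and 2 with GH+Phen, and 5 and 2 with 2DG+Phen. The mannosidases MAN1A1 (-0.39, SE 0.08, adjusted p = 0.00119) and MAN1A2 (-0.35, SE 0.08, adjusted p = 0.00389) and the GlcNAc transferase MGAT2 (-0.28, SE 0.07, adjusted p = 0.0042) fell with 2DG. Their GC contents were 42.7%, 37.3% and 47.5%. With 2DG, 53.2% of all genes under 45% GC fell, and 33.1% of those at 45% to 50%.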

How the data were processed

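RNA from T98G cells in 6 groups of 3 was sequenced. The authors used CLC Genomics Workbench 11 to map reads by strand to GRCh38 (Ensembl 89), and deposited FPKM for 55128 genes; no counts were used, so no count model was run. Whole fragments and library depth (20262458 on average) were recovered from steps of the values, at a tolerance of 0.02 for the members. limma 3.58.1 in R 4.3.3 was fitted with a trend to log2(FPKM + 0.1) for genes at 0.5 FPKM or more in at least 3 libraries, with 6 group means and 12 residual degrees of freedom. Adjusted p-values (Benjamini-Hochberg) cover all 12108 tested genes.

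GC content and length came from the longest transcript in GENCODE 44, for 99.29% of tested genes; the correction removed a spline trend on both from each library. Replicates are labelled biological, and whether letters mark shared cultures is not stated. The model was tested on simulated data. Named members were those with the largest changes whose libraries did not overlap, the smallest adjusted p of each role, GFPT1 and the paralogue pairs; of each list of other genes, up to 3 called genes of smallest adjusted p with 2DG or GH. UAP1, GNPNAT1, DOLPP1, MPI, ALG1, ALG3, ALG13, ALG14, ALG5, ALG8, ALG9, ALG11, DPAGT1, DAD1, DDOST, GANAB, MAN1B1, UGGT1, RPN1, RPN2, OST4 and SEL1L were named in addition, after their values were seen. Members, lists and tests were chosen with earlier results of these data known. Alternatives were another pseudocount, no filter, median-of-ratios scaling, the correction, only the groups compared, a replicate block, and libraries left out. Python 3.11.15, numpy 2.4.6, pandas 2.3.3 and matplotlib 3.10.9 made tables and figures.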

Additional observations from a re-analysis of the deposited data

Results flagged for a closer look

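The interaction of GH and Phen differed from 0 for 4 members, meaning that Phen changed them otherwise with GH than without it. The term was -0.60 for ALG2, -0.42 for GFPT1, -0.35 for TUSC3 and -0.32 for UGGT1 on the log2 scale, by limma with adjusted p of 0.00713, 0.0245, 0.0343 and 0.0246. Once GC content and length were corrected, it was -0.51, -0.20, -0.19 and -0.16, and each passed. Over the members this term went with GC content with a Pearson r of 0.83, and 18 members passed in place of 4 with GH+Phen A left out, but only 1 with GH A left out and 1 when the model held no other groups. With no other groups, 0.669% of all tested genes had a term above and 1.17% below 0. With 1 library left out these shares were not counted. The part of GC content in this term was not tested.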

How the results depend on the processing

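With the GC and length correction, 7 members rose with GH, 1 with Phen, 10 with GH+Phen and 16 with 2DG+Phen, and 7 fell with 2DG and 7 with 2DG+Phen. It gave 9 calls for 2DG+Phen against 2DG, 7 for the interaction of GH and Phen and 3 for that of 2DG and Phen. Of all tested genes, 12.6% were then higher and 10.6% lower in 2DG+Phen than in 2DG. The interaction with GH had 4.82% above and 6.6% below 0, and that with 2DG 5.25% and 7.42%. The correction turned SRD5A3 (0.0130), DPM1 (0.0313) and GFPT1 (0.0864) in 2DG+Phen and DPM1 (0.0327) and TUSC3 (0.0044) in 2DG, with the same values when joined with the replicate block. With the replicate block alone, 1 member rose with Phen and 7 with GH+Phen, beside 0.603% and 20.2% of all tested genes. The interactions then had 9 calls for GH and 2 for 2DG. Of all tested genes, 5.66% were called above and 8.96% below 0 for GH, and 2.07% and 5.34% for 2DG. With block and correction together, 10 rose with GH, 1 with Phen, 12 with GH+Phen and 18 with 2DG+Phen, 7 fell with 2DG and 6 with 2DG+Phen. In the same order, the shares of all tested genes were 8.46%, 3.22%, 23.4% and 30% up, and 22.4% and 24.1% down. There, calls were 11 for 2DG+Phen against 2DG, 3 for GH+Phen against 2DG+Phen, and 8 and 3 for the interactions with GH and 2DG. In that order, 13.9%, 8.83%, 6.68% and 5.91% of all tested genes were called above 0. Below 0 the shares were 11.2%, 10.5%, 8.53% and 7.99%. Letters were not taken to pair the samples, since not every pair exceeded 0.1, although the C libraries all did: deviations of same-letter libraries correlated between -0.43 and 0.59, over 0.1 in 29 of 45 pairs, and in 26 of 45 cases a library matched its own letter best.

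When the model held no groups beside those compared, 1 member fell with GH+Phen and 4 rose with 2DG+Phen, beside 3.94% and 16.3% of all tested genes. Calls were then 0 for GH+Phen against GH, 1 for 2DG+Phen against 2DG, 0 for GH+Phen against 2DG+Phen, and 1 and 2 for the interactions with GH and 2DG. In that order, 0.595%, 2.59%, 0.496%, 0.669% and 1.45% of all tested genes were called above 0. Below 0 the shares were 0.553%, 6.55%, 0.479%, 1.17% and 4.46%. With no filter, 2 rose with 2DG+Phen, beside 7.47% of the genes then tested. Calls were 1 for 2DG+Phen against 2DG, beside 1.43% of the genes higher and 3.11% lower. For GH against 2DG they were 13, beside 10.5% higher and 4.39% lower. With median-of-ratios scaling 15 rose with 2DG+Phen, beside 27.5% of all tested genes. Without DMSO C and GH+Phen A, 4 rose with GH, 19 with GH+Phen and 18 with 2DG+Phen, and 15 fell with GH+Phen. Calls were 24 for GH+Phen against GH, 2 for GH+Phen against 2DG+Phen, and 13 and 2 for the interactions with GH and 2DG. In that order, 22.7%, 5.96%, 9.33% and 2.11% of all tested genes were called above 0. Below 0 the shares were 26.1%, 2.66%, 13.8% and 5.34%.

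Leaving out 1 library at a time gave 2 (without DMSO A) to 16 rises with 2DG, 0 to 15 (without GH+Phen A) rises and 3 to 12 falls with GH+Phen, and 0 (without 2DG+Phen C) to 14 (without DMSO C) rises with 2DG+Phen. Calls ranged over 1 to 18 for GH+Phen against GH, 1 to 2 for 2DG+Phen against 2DG, 11 (without GH A) to 24 for GH against 2DG, 1 (without GH A) to 18 (without GH+Phen A) for the interaction with GH and 0 to 1 for that with 2DG. The shares of all tested genes were not counted with 1 library left out, and the cause of these shifts was not tested. With 3 libraries a group and FPKM in place of counts, small changes could be missed, and DPM3 was too low to read.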
